A study of Mus musculus with 69 samples.

Results

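The comparison described here sets RNA from the nucleus accumbens of male mice exposed to early life stress (ELS) and labelled Dot1l knockdown against RNA from male mice reared under the Standard condition and labelled GFP. It takes in 16 of the 32 RNA libraries, 8 per group, among 69 samples in the series, and 14016 of the 52636 genes in the count table passed the filter on low counts. The libraries were chosen by their labels for rearing and vector. The groups therefore differ in rearing and in vector at once, and these cannot be told apart in this contrast alone. The remaining RNA groups are ELS mice with GFP and Standard mice with Dot1l overexpression, also 8 libraries each. The series also holds H3K79me2 chromatin immunoprecipitation libraries and their inputs from ELS and Standard mice. The labels give no age and do not say which cells carried a vector, the series' design text names D2-type medium spiny neurons, and the RNA was prepared from whole tissue.

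The nucleus accumbens is the ventral part of the striatum and takes part in reward and motivation. Most of its neurons are GABAergic medium spiny neurons, which divide into a D1 type that expresses the dopamine receptor D1, substance P and dynorphin, and a D2 type that expresses the dopamine receptor D2, an adenosine receptor (Adora2a) and enkephalin. DOT1L is the methyltransferase that places methyl groups on lysine 79 of histone H3 (H3K79me), a mark found over transcribed genes. KDM2B has been described as a demethylase for this mark.

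The targeted gene, Dot1l, was not lower in the libraries labelled knockdown than in Standard GFP. Dot1l had 28.9 CPM (counts scaled to 1e6 per library, on TMM-normalised library sizes) in the lowest library labelled knockdown, a median of 38.4 CPM and 74.9 CPM in the highest. The Standard GFP libraries ran from 10.6 CPM through a median of 36.3 CPM to 48.5 CPM. The groups overlapped, and 5 of the 8 libraries labelled knockdown lay above the Standard GFP median. For Dot1l the log2 fold change came to 0.33, with an SE of 0.27 and an adjusted p of 0.714 (edgeR quasi-likelihood test). Rearing and vector both differ in this contrast, so the value does not tell what the vector did to Dot1l. The group is called the libraries labelled knockdown throughout. Every log2 fold change below is these libraries minus Standard GFP unless another contrast is named, and a negative value is lower in them. Which cells carried the vector is not stated, and the part of cells without it in the value for Dot1l was not tested.

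No gene passed the adjusted threshold of 0.05 in either direction (0% of 14016 genes, edgeR). The smallest adjusted p was 0.0948, reached by 40 genes. At an unadjusted p under 0.05, 436 genes were higher (3.11%) and 1079 lower (7.7%) in the libraries labelled knockdown. The DESeq2 Wald test called 8 genes higher and 66 lower at an adjusted p under 0.05, and limma voom with quality weights called 0 in each direction. There was no gene whose groups of 8 did not overlap (0%). The excess of lower genes went with few libraries. Standard GFP replicates 5 and 6 each held over 50% of their group's summed CPM in more than 3% of all genes tested (3.57% and 3.25%). Of the 1079 lower genes, 481 (44.6%) had 1 Standard GFP library with over 50% of the group's CPM, most often replicate 6 (272 genes), replicate 5 (119 genes) or replicate 1 (83 genes). Among the 436 higher genes 53 (12.2%) were held in this way by 1 library labelled knockdown, and for 40 of them this was replicate 7. Without Standard GFP replicates 5 and 6, 488 genes were higher and 449 lower. An exact rank-sum test called 352 genes higher and 243 lower, so the balance of directions changed side.

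The libraries labelled knockdown held 0.462 to 8.8 M counts (1e6 counts) and the Standard GFP libraries 0.314 to 9.8 M counts. Under 1 M counts lay Standard GFP replicates 1, 4 and 5 and knockdown replicate 7. Total counts averaged 6.01 ± 2.73 M in the libraries labelled knockdown and 3.84 ± 3.18 M in Standard GFP (SD, n = 8; two-sided exact permutation test, p = 0.163, adjusted p = 0.370 over 5 library measures). The 10 most abundant features held 50.9% ± 5.87 and 49.8% ± 8.27 of the counts (SD, n = 8). Pairs of libraries within a group correlated at 0.75 to 0.949 in the libraries labelled knockdown and at 0.686 to 0.94 in Standard GFP.

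**Figure D1:**
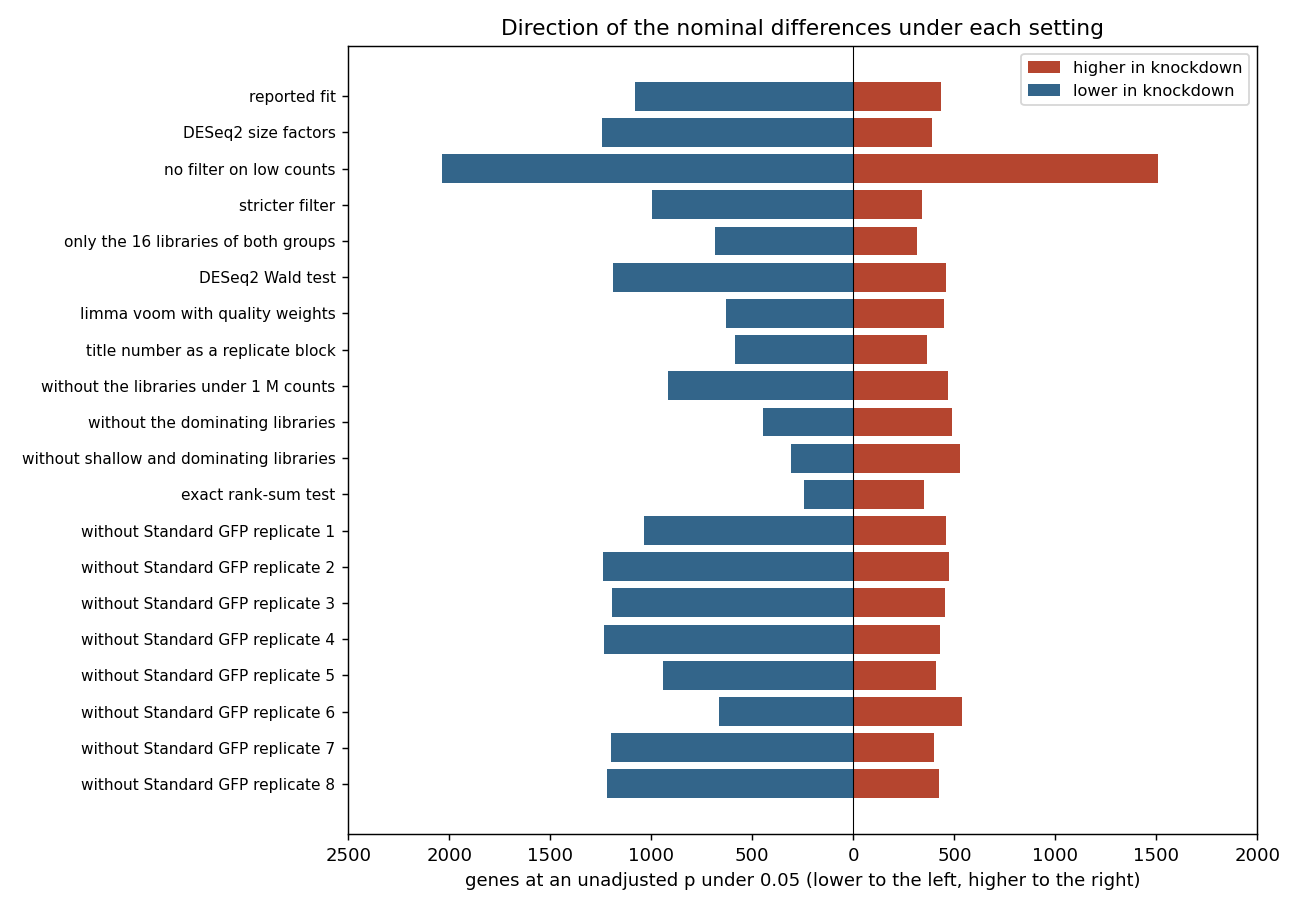
Number of genes at an unadjusted p under 0.05 in each setting, with genes lower in the libraries labelled knockdown drawn to the left and higher genes to the right, the counts being those of 1 fit per row. The reported fit holds 436 higher and 1079 lower genes, and the settings without the dominating Standard GFP libraries and the rank-sum test hold more higher than lower genes.

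Of 7015 well-spread genes, defined as those with a mean of at least 5 CPM in either group and no library above 30% of the summed CPM of the higher group, 211 (3.01%) were higher and 223 (3.18%) were lower at an unadjusted p under 0.05. A gene can enter through the group where it is high, so these counts only describe the set and their balance supports nothing. None passed the adjusted threshold in edgeR.

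Chgb encodes chromogranin B of secretory granules. It measured 61.0 CPM, a median of 96.4 CPM and 127 CPM at most in the libraries labelled knockdown, and 77.9, 132 and 501 CPM in Standard GFP. All 8 libraries labelled knockdown lay below the Standard GFP median, while 4 Standard GFP libraries lay above the whole knockdown range. The fitted log2 difference was -1.20 (SE 0.29, adjusted p = 0.0948, edgeR), and -0.29 without both the shallow and the dominating libraries. Gabbr1 (chr17:37045966-37074305, GRCm38) encodes a subunit of the GABA-B receptor. It measured 117, 138 and 144 CPM (lowest, median, highest) against 128, 205 and 384 CPM. The libraries labelled knockdown were tightly grouped, and 7 of 8 Standard GFP libraries lay above them. The log2 fold change came to -0.77 (SE 0.20, adjusted p = 0.111) and was -0.45 without the dominating libraries.

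Mapt (chr11:104229409-104332090), the gene of the microtubule protein tau, ran from 68.6 to 114 CPM around a median of 103 CPM, against 80.1 to 373 CPM around 143 CPM in Standard GFP. Its log2 fold change of -0.87 (SE 0.23, adjusted p = 0.111) became -0.39 without the dominating libraries. Ncan, the gene of the extracellular matrix proteoglycan neurocan, had a log2 fold change of -0.83 (SE 0.21), with 6 Standard GFP libraries above the highest library labelled knockdown, and was at -0.48 without the dominating libraries. Tet2 encodes an enzyme that oxidises 5-methylcytosine in DNA. It lay at 42.5 to 69.1 CPM against 58.4 to 219 CPM, with a log2 fold change of -0.98 (SE 0.24), which was -0.21 without the libraries under 1 M counts. Srebf2, the transcription factor of sterol synthesis, measured 24.8, 49.0 and 57.3 CPM against 51.8, 69.0 and 184 CPM, and 7 of 8 Standard GFP libraries lay above the knockdown range. The log2 difference was -0.84 (SE 0.25), and -0.51 without the dominating libraries. Rtn4ip1, a mitochondrial protein gene, had a log2 fold change of -1.42 (SE 0.42).

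In the other direction, Rpl10a encodes a protein of the large ribosomal subunit. It measured 9.12, 18.0 and 21.1 CPM in the libraries labelled knockdown and 0, 7.43 and 11.1 CPM in Standard GFP. Of the libraries labelled knockdown 7 of 8 lay above every Standard GFP library. On the log2 scale it was higher by 1.15 (SE 0.30, adjusted p = 0.111), and the value stayed between 0.99 and 1.28 over the settings tried. Ribosomal protein genes have processed copies elsewhere in the genome, so how the authors' counting split their reads is uncertain. Psma7 (chr2:180036367-180042464), a proteasome core subunit, measured 11.4, 15.3 and 32.2 CPM against 6.88, 9.72 and 14.1 CPM, and 5 libraries labelled knockdown lay above the Standard GFP range. This is a log2 difference of 0.80 (SE 0.24, adjusted p = 0.167).

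Pla2g4a encodes a cytosolic phospholipase A2, which frees arachidonic acid from membranes. It lay at 10.6 to 41.2 CPM around a median of 20.2 CPM, against 7.97 to 15.9 CPM around 11.7 CPM, or 0.97 on the log2 scale (SE 0.26, adjusted p = 0.115). Gtpbp4 encodes a nucleolar GTPase of ribosome assembly and was 0.92 higher on the log2 scale (SE 0.28, adjusted p = 0.178), with 7 of 8 libraries labelled knockdown above the Standard GFP maximum. Gcnt1, a glycosyltransferase, had 1.53 (SE 0.49), Ppp2r3c, a subunit of protein phosphatase 2A, 1.35 (SE 0.40), Ankdd1a 2.07 (SE 0.62), and 1110032A03Rik 1.93 (SE 0.45, adjusted p = 0.0948), each as a log2 fold change.

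**Figure D2:**
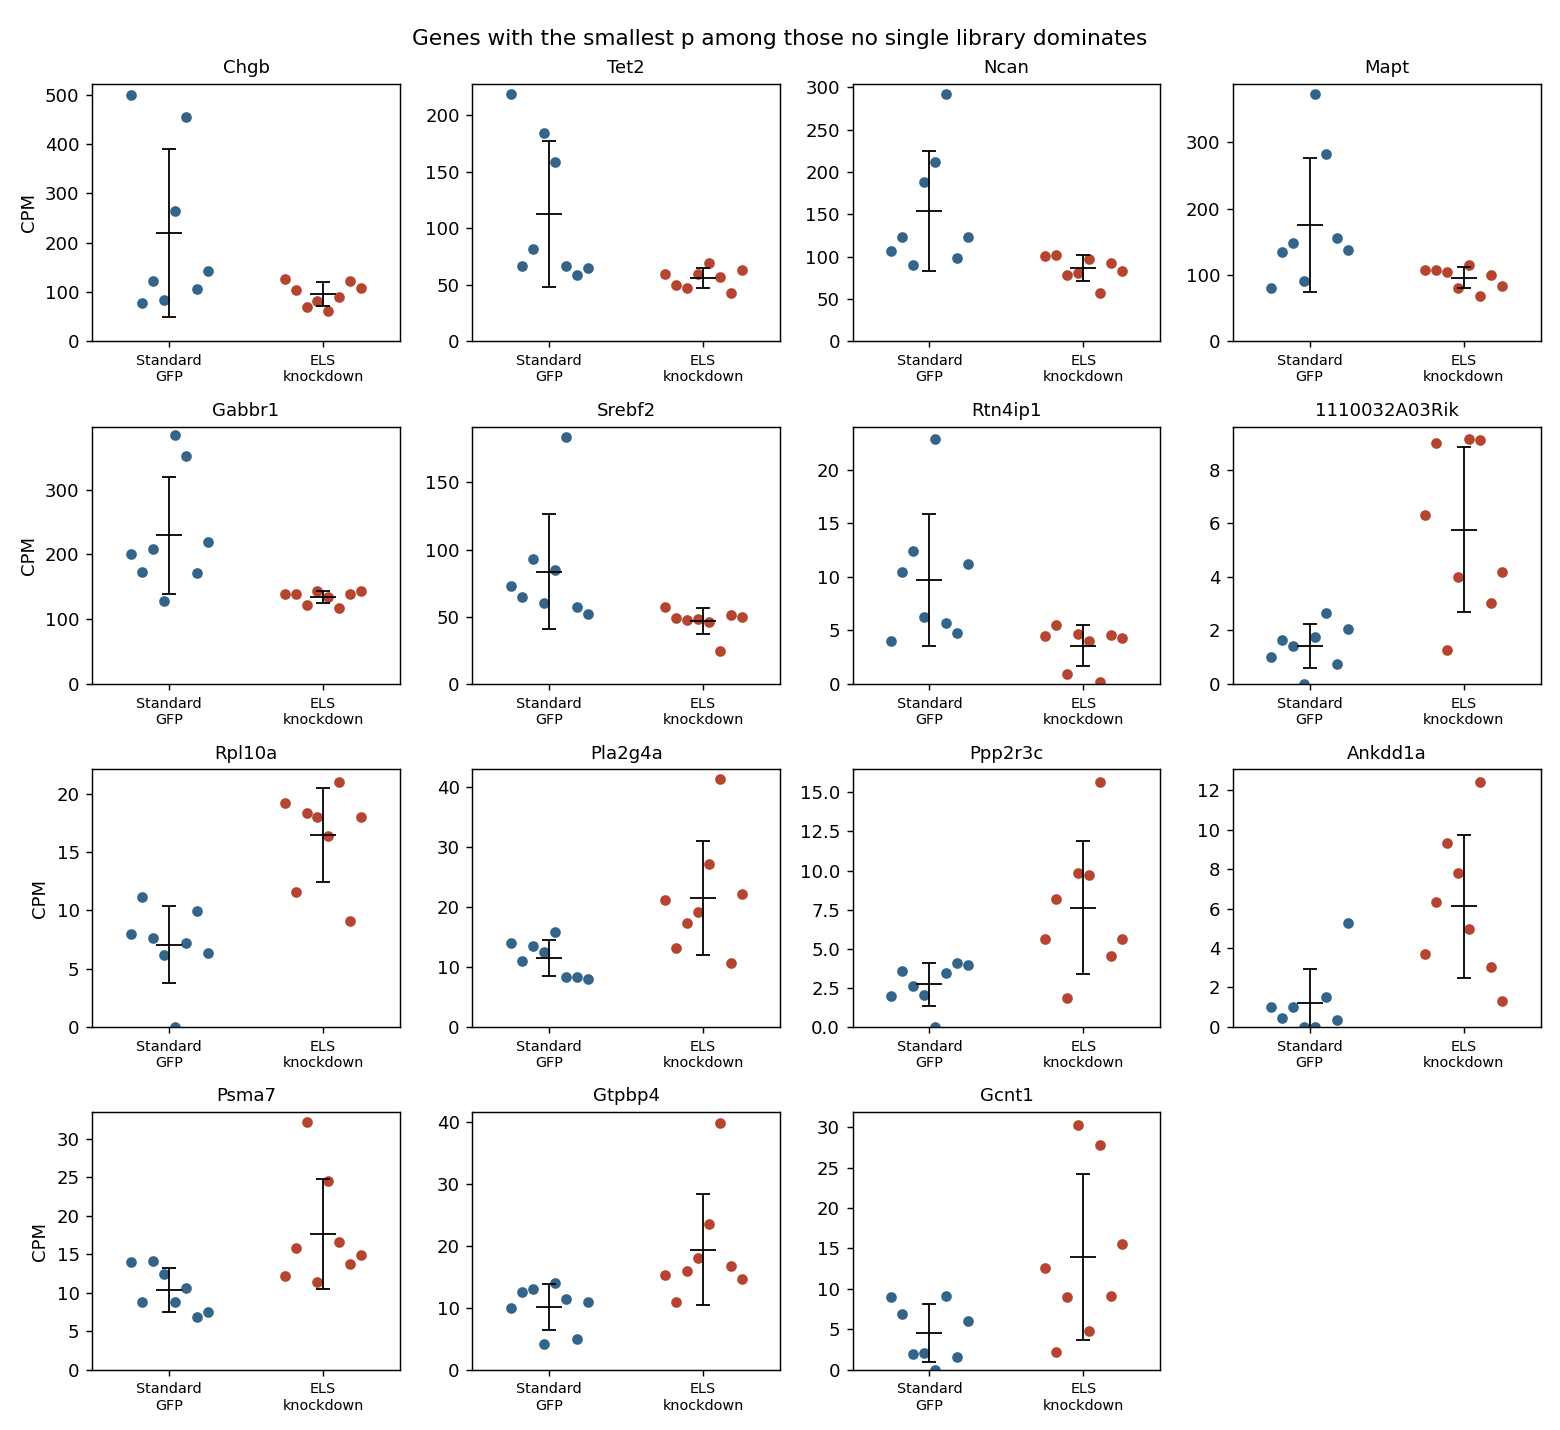
CPM in each library for 15 well-spread genes among those with the smallest p, 7 lower and 8 higher in the libraries labelled knockdown; points are libraries, the horizontal mark is the mean and the bar is the SD (n = 8). Rpl10a lies above every Standard GFP library in 7 of 8 libraries labelled knockdown, while all libraries labelled knockdown lie below the Standard GFP median for each of the 7 lower genes.

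The upstream sequences of 4 of these genes are shown because their H3K79me2 peaks differ: Gabbr1 and Psma7 have peaks within 1 kb of their starts in the deposited lists, and Gja1 (connexin 43 of astrocytes, described below) and Rpl10a have none. Each line gives the 250 bases before the RefSeq start of the gene on GRCm38.p6, with CG pairs in capitals. Rpl10a has 2 listed starts, and only the first listed was used. Gabbr1 is at chr17:37045716-37045965 on the plus strand, Gja1 at chr10:56377050-56377299 on the plus strand, Psma7 at chr2:180042465-180042714 on the minus strand and Rpl10a at chr17:28328221-28328470 on the plus strand.
Gabbr1: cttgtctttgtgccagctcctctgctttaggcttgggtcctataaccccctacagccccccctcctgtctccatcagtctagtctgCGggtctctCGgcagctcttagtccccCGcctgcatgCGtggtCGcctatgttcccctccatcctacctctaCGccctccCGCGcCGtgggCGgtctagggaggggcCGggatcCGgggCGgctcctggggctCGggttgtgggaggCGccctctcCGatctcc
Gja1: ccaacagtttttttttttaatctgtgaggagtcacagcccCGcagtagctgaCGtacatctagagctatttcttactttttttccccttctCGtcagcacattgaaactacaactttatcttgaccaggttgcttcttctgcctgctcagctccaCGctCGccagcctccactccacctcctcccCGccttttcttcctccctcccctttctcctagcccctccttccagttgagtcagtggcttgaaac
Psma7: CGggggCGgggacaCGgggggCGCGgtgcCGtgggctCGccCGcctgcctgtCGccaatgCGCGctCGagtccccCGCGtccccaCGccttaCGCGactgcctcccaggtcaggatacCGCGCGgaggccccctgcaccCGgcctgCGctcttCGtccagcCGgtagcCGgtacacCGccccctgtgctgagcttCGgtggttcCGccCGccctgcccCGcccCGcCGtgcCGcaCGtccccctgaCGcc
Rpl10a: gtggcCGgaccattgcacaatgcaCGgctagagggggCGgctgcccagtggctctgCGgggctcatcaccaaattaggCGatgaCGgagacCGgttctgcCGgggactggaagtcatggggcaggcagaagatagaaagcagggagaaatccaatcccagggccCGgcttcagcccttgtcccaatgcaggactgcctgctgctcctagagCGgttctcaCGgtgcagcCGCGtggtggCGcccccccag

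These windows hold 16, 6, 35 and 14 CG pairs in that order, where the median over 32851 RefSeq promoters of the same length is 6. As many CG pairs or more occur in 25.4%, 50.4%, 2.97% and 29.4% of those promoters. The letters TATAAA, searched on both strands, occur in none of the 4 and in 12.4% of all promoters. No peak of either list overlaps any of these 4 windows.

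The genes with the smallest p of all were mostly single-library genes. Neu4, a sialidase gene that also served as a marker of oligodendrocyte precursors, had a median of 1.63 CPM and a maximum of 116 CPM in Standard GFP, where replicate 6 held 91.0% of the group's CPM. Its log2 fold change of -5.13 (SE 1.02, adjusted p = 0.0948, edgeR) was -2.15 without the dominating libraries. Ptrhd1 was carried by replicate 1 (92.3% of the group's CPM) and Mex3a, an RNA-binding protein gene, by replicate 6 (82.8%). Marveld1 and Gm15738 were led by replicate 5 (55.9% and 50.3%). Nifk encodes a protein of the nucleolus that binds Ki-67. It had a median of 5.99 CPM against 8.26 CPM and a Standard GFP maximum of 148 CPM, and its log2 fold change of -2.93 was -0.25 without the shallow and dominating libraries. Pgam2, a muscle-type glycolytic enzyme gene, and Lipc, the gene of hepatic lipase, reached 278 and 479 CPM in knockdown replicate 7 alone. That replicate held 93.2% and 94.0% of its group. Their log2 fold changes of 4.56 and 4.64 were 0.79 and 1.27 without the libraries under 1 M counts. Ercc5, a DNA repair endonuclease gene, had medians of 12.8 CPM against 9.99 CPM, with 6 of 8 libraries labelled knockdown above the Standard GFP range. 4933413J09Rik was listed at 0 in 7 of 8 Standard GFP libraries and had a median of 0.73 CPM in the libraries labelled knockdown.

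Astrocyte markers were lower as a group. All 13 of the 13 tested markers, of 15 listed, had a negative log2 fold change (100%, against 51.9% of all genes tested), with a median of -0.46 against -0.023 for all genes. At an unadjusted p under 0.05, 5 of 13 were lower (38.5%, beside 7.7% of all genes). The summed CPM of the list ran from 1586 to 2115 in the libraries labelled knockdown around a median of 2000, and from 2003 to 3817 in Standard GFP around 2472. All 8 libraries labelled knockdown lay below the Standard GFP median. Over the 27 alternatives the median stayed negative, from -0.51 to -0.30, and 10 of 13 markers were lower without the dominating libraries. Gfap was listed at 0 counts in all 32 RNA libraries, and S100b did not pass the filter. In bulk tissue, fewer cells of a type and less RNA per cell cannot be told apart.

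Slc1a2, the main glutamate transporter of astrocytes, measured 869, 1088 and 1292 CPM in the libraries labelled knockdown against 1231, 1392 and 2015 CPM in Standard GFP. Standard GFP had 7 of 8 libraries above the knockdown range. The log2 difference came to -0.43 (SE 0.18, adjusted p = 0.355). Gja1 measured 13.1, 40.1 and 53.2 CPM against 37.3, 56.2 and 130 CPM. All libraries labelled knockdown lay below the Standard GFP median, and the log2 fold change of -0.75 (SE 0.26, adjusted p = 0.245) became -0.38 without the dominating libraries. Aqp4, the water channel of astrocyte endfeet, had -0.55 (SE 0.25) and Aldoc, a glycolytic aldolase, -0.55 (SE 0.24), both as log2 fold changes. Without Standard GFP replicate 5 they were at -0.32 and -0.34.

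Genes of myelin were also lower as a group. All 15 tested genes lay below 0 on the log2 scale, with a median of -0.42 that stayed between -0.67 and -0.32 in every alternative. At an unadjusted p under 0.05, 3 of 15 (20%) were lower, beside 7.7% of all genes. All 8 libraries labelled knockdown lay below the Standard GFP median of the list's summed CPM, at 402 to 870 CPM around a median of 573 against 600 to 1201 CPM around 967. Fa2h, which hydroxylates fatty acids of myelin lipids, had -1.69 (SE 0.47, adjusted p = 0.133), although Standard GFP replicate 6 held 54.8% of its group, and the value was -0.79 without the dominating libraries. Myrf, the transcription factor of myelination, had a log2 fold change of -0.94 (SE 0.34). Mbp, myelin basic protein, measured 92.2, 128 and 301 CPM against 65.2, 218 and 334 CPM. The groups overlapped, with 7 of 8 libraries labelled knockdown below the Standard GFP median, and the log2 fold change was -0.47 (SE 0.28). Oligodendrocyte precursor markers were lower for 4 of 5 genes, with Pdgfra at -0.33 (SE 0.36). Without the dominating libraries 3 of 5 were lower and Pdgfra was at 0.07.

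Markers of medium spiny neurons were lower for most genes with wide library spread. Of the 16 tested markers shared by both types 15 were lower, the median over genes being -0.53 on the log2 scale. Of the D2-type markers 4 of 4 were lower at a median of -0.90, and of the D1-type markers 6 of 7 at -0.48. The medians stayed negative in the 27 alternatives, from -0.79 to -0.22, from -1.22 to -0.43 and from -1.16 to -0.15. As ratios of group medians 14 of 16 shared and 4 of 4 D2-type markers were lower, but the D1-type markers were split, 3 higher and 4 lower. The D1-type marker Tac1 had a log2 fold change of -0.82, and 0.63 as a ratio of group medians. The shared marker Rgs9 had -0.42, and 0.022 without Standard GFP replicate 8. Penk, the enkephalin precursor of D2-type neurons, ran from 31.2 CPM through 59.1 to 197 CPM in the libraries labelled knockdown and from 26.2 through 194 to 467 CPM in Standard GFP. The groups overlapped, with 7 of 8 libraries labelled knockdown below the Standard GFP median. On the log2 scale the difference was -1.43 (SE 0.54, adjusted p = 0.287). Adora2a (adenosine receptor) had a log2 fold change of -1.73 (SE 0.62), which was -0.57 as a ratio of group medians, and Drd2 (dopamine receptor D2) had -0.37 (SE 0.59), with -0.72 without knockdown replicate 6 and -0.077 without Standard GFP replicate 8. Among the D1-type genes, Eya1, a transcriptional coactivator, had -0.88 (SE 0.29, adjusted p = 0.196; -0.24 without the shallow and dominating libraries), Pdyn, the dynorphin precursor, -0.96 (SE 0.62; -1.94 to -0.54 without the same 2 libraries in turn) and Drd1, the dopamine receptor D1, -0.48 (SE 0.68). Drd1 was highest in knockdown replicate 6 at 42.6 CPM, which is above every Standard GFP library and 65.1% of its group's CPM, and its value was -1.72 without that library and -0.10 without Standard GFP replicate 8.

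Pde1b, a calcium-dependent phosphodiesterase of medium spiny neurons, had -1.06 (SE 0.38) and Pde10a -0.49 (SE 0.29), with 225 to 615 CPM against 319 to 1015 CPM. The value for Pde1b was -0.57 without the dominating libraries. Ppp1r1b (DARPP-32, a phosphatase inhibitor controlled by dopamine) had a log2 fold change of -0.87 (SE 0.51). Without Standard GFP replicate 8 Ppp1r1b was at -0.45 and Pde10a at -0.30. Neurons in general had 7 of 9 pan-neuronal markers lower at a median of -0.13. Nefm, the medium neurofilament subunit, was lower at 20.3 to 37.5 CPM around 31.3 against 31.7 to 194 CPM around 45.3, or -1.35 on the log2 scale (SE 0.31, adjusted p = 0.0948), and -0.84 without the libraries under 1 M counts. The pan-neuronal median was -0.021 without the dominating libraries, close to that of all genes. Interneuron markers gave no stable direction, with 5 of 9 lower in the reported fit and 6 of 9 higher without the dominating libraries. Excitatory forebrain markers were higher for 6 of 8 genes at a median of 0.13, which was 0.60 without the dominating libraries and -0.054 without Standard GFP replicate 8.

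**Figure D3:**
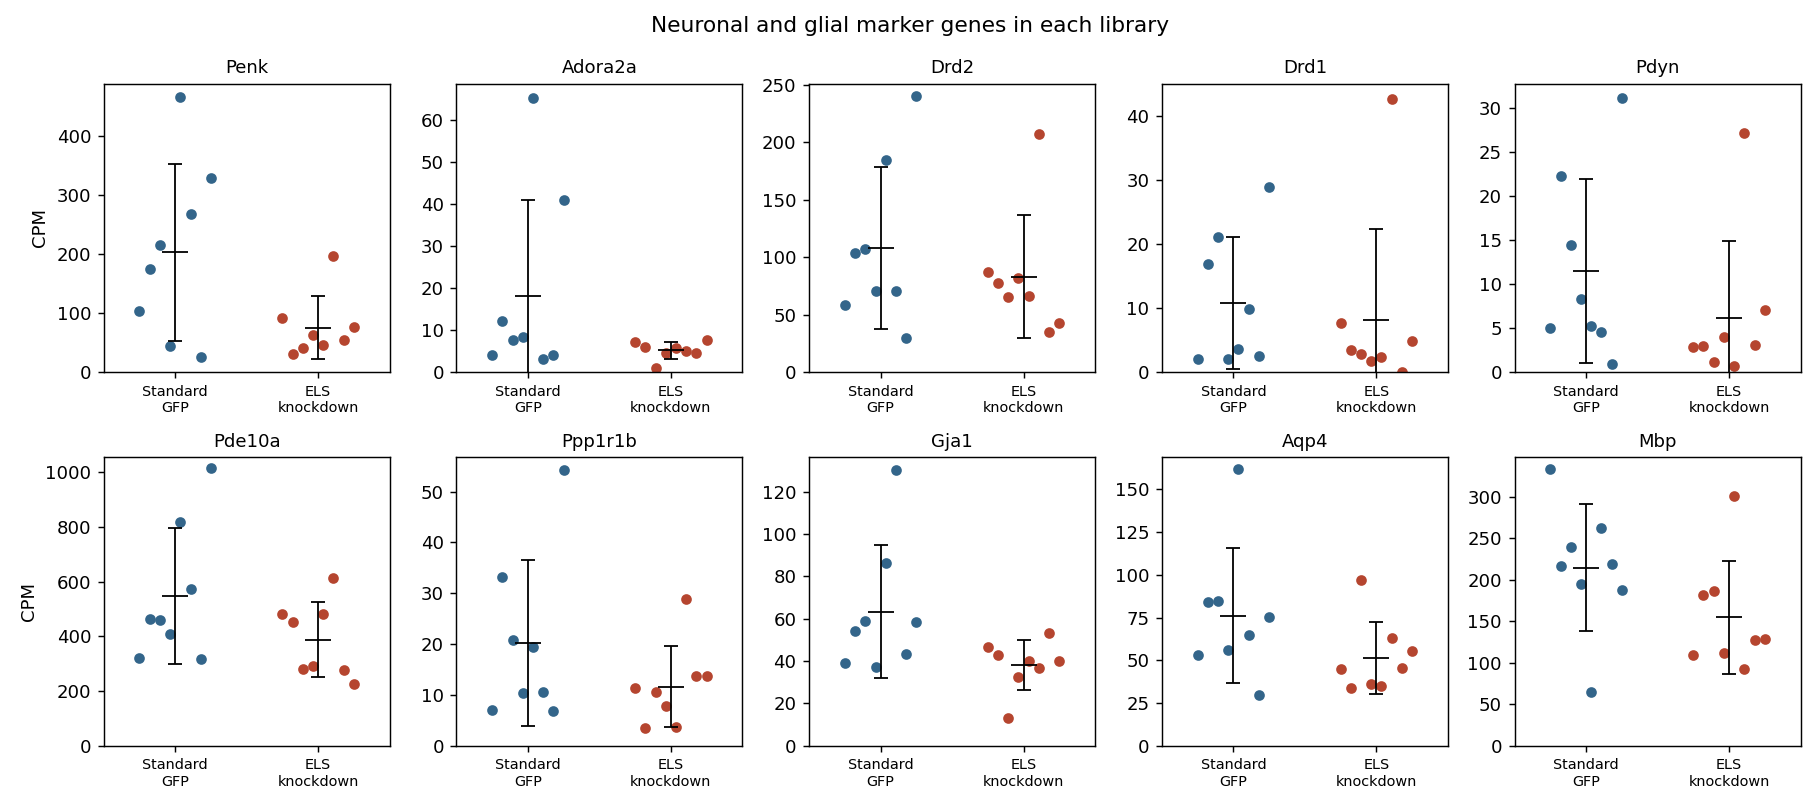
CPM of 10 neuronal and glial marker genes in each library, with Standard GFP at left and the libraries labelled knockdown at right; points are libraries and bars are mean and SD (n = 8). All 8 libraries labelled knockdown lie below the Standard GFP median for Gja1 and Adora2a, while Drd1, Drd2 and Pdyn overlap and are each highest in knockdown replicate 6 within that group.

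Synaptic genes were lower in part. Of 20 postsynaptic scaffold and adhesion genes 18 were lower at a median of -0.37, 7 of them (35%) at an unadjusted p under 0.05, beside 7.7% of all genes. The median was -0.16 without the dominating libraries, where 17 of 20 were still lower. The scaffold genes Dlg1 and Dlg4 had -0.80 (SE 0.26) and -0.74 (SE 0.28), the latter encoding PSD-95, and Nlgn2, the adhesion protein of inhibitory synapses, had -0.77 (SE 0.31). These 3 values were -0.14, -0.23 and -0.18 without the dominating libraries, which is over 1.5 times smaller for each. Standard GFP replicate 6 was the highest of its group for Dlg1, Dlg4 and Nlgn2.

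Of 22 presynaptic release genes 18 were lower at a median of -0.25, and -0.076 without the dominating libraries. The active zone proteins Pclo and Bsn had -0.66 (SE 0.23) and -0.47 (SE 0.19), and Cplx2, a regulator of vesicle fusion, -0.75 (SE 0.32). Of 20 GABA genes 16 were lower at -0.19, with the GABA-A receptor subunit gene Gabra4 at -0.65 (SE 0.22) beside Gabbr1. Without the dominating libraries 14 of the GABA genes were lower, at -0.17. As ratios of group medians 9 were higher and 11 lower, at -0.060, where 51.9% of all genes tested were lower in the reported fit. Of 19 dopamine and cAMP genes 16 were lower at -0.26, and -0.071 without the dominating libraries. Without the dominating libraries Bsn was at -0.24, Gabra4 at -0.26 and Prkacb at -0.27, and Pclo was at -0.26 without the libraries under 1 M counts. The dopamine and cAMP list includes Gnao1, a G protein subunit, at -0.58 (SE 0.18) and Prkacb, a catalytic subunit of protein kinase A, at -0.53 (SE 0.20). Ionotropic glutamate receptor genes were lower for 14 of 17 genes at -0.12, but 10 of 17 were higher without the shallow and dominating libraries.

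Ribosomal protein genes and interferon genes were higher for most members. Among the 69 genes for cytosolic ribosomal proteins, 53 were higher, and the list's median was 0.19 on the log2 scale, from 0.13 to 0.31 over the alternatives. At an unadjusted p under 0.05, 10 were higher and 5 lower, beside 3.11% and 7.7% of all genes, and the 5 of 69 lower (7.25%) are at the share of all genes. Rps10, of the small subunit, measured 4.56, 9.41 and 19.0 CPM against 0, 4.48 and 9.01 CPM, a log2 difference of 1.19 (SE 0.39, adjusted p = 0.195). Rpl18 and Rpl21 had -1.44 (SE 0.50) and -0.78 (SE 0.29), and were at 0.41 and 0.096 without the shallow and dominating libraries. The summed CPM of the list lay at 1140 to 1777 against 869 to 1756, and its medians were 1512 and 1579, the opposite order of the median over genes. Of 24 interferon-stimulated genes 18 were higher at a median of 0.22, which was 0.14 to 0.44 over the alternatives. Of these 24 genes 1 was higher at an unadjusted p under 0.05, which is near the 3.11% of all genes. This was Psmb9, an immunoproteasome subunit, at 3.04, 9.81 and 26 CPM against 0, 3.66 and 8.77 CPM, or 1.36 on the log2 scale (SE 0.66, adjusted p = 0.448). Irf1, a transcription factor of the interferon response, had 0.58 (SE 0.30), Ifit2 0.55 (SE 0.32) and the RNA sensor gene Ddx58 0.49 (SE 0.30).

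Microglia markers gave no stable direction, with 7 of 13 higher at a median of 0.036. All 13 were higher without the dominating libraries, at a median of 0.59, and 8 of 13 were lower with the title number as a replicate block, at -0.13. Endothelial markers were lower for 8 of 13 at -0.12, but 9 of 13 were higher without the shallow and dominating libraries, at 0.086. Mural cell markers were lower for 4 of 6 at -0.17, which was 0.18 without Standard GFP replicate 7. Axon guidance, potassium channel and voltage-gated calcium and sodium channel genes had medians of -0.13, -0.15 and -0.11, whose values nearest to 0 over the alternatives were -0.023, -0.057 and -0.052. Proteasome, respiratory chain and heat shock genes had medians of -0.024, -0.026 and -0.051, and each turned positive in some alternatives, up to 0.21, 0.030 and 0.014.

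Among regulators of H3K79, Kdm2b had a log2 fold change of -0.14 (SE 0.30) and was at 0.37 without the dominating libraries. Genes of the DOT1L complex and the super elongation complex were split, 7 higher and 9 lower, and were 11 higher and 5 lower without the dominating libraries, with Ell2, an elongation factor, at 0.72 (SE 0.30) and Ccnt1, a cyclin of the elongation kinase P-TEFb, at -1.01 (SE 0.40), where Standard GFP replicate 4 held 51.6% of its group. Without that library Ccnt1 was at -0.28. Immediate early genes were split in the reported fit, 9 higher and 9 lower at -0.021, and were 14 higher and 4 lower without the shallow and dominating libraries, at 0.37. Fos had 0.63 (SE 0.48), and 0.047 without knockdown replicate 8. Arc had -0.84 (SE 0.41), and -0.012 without the dominating libraries. Egr3 had -1.23 (SE 0.41), and -0.26 without the shallow and dominating libraries. In the reported fit Npas4 had -0.45 (SE 0.46) and Fosb 0.13 (SE 0.58). Fkbp5, a gene induced by glucocorticoids, had -0.46 (SE 0.41), and Bdnf, a neurotrophin, 0.045 (SE 0.52).

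**Figure D4:**
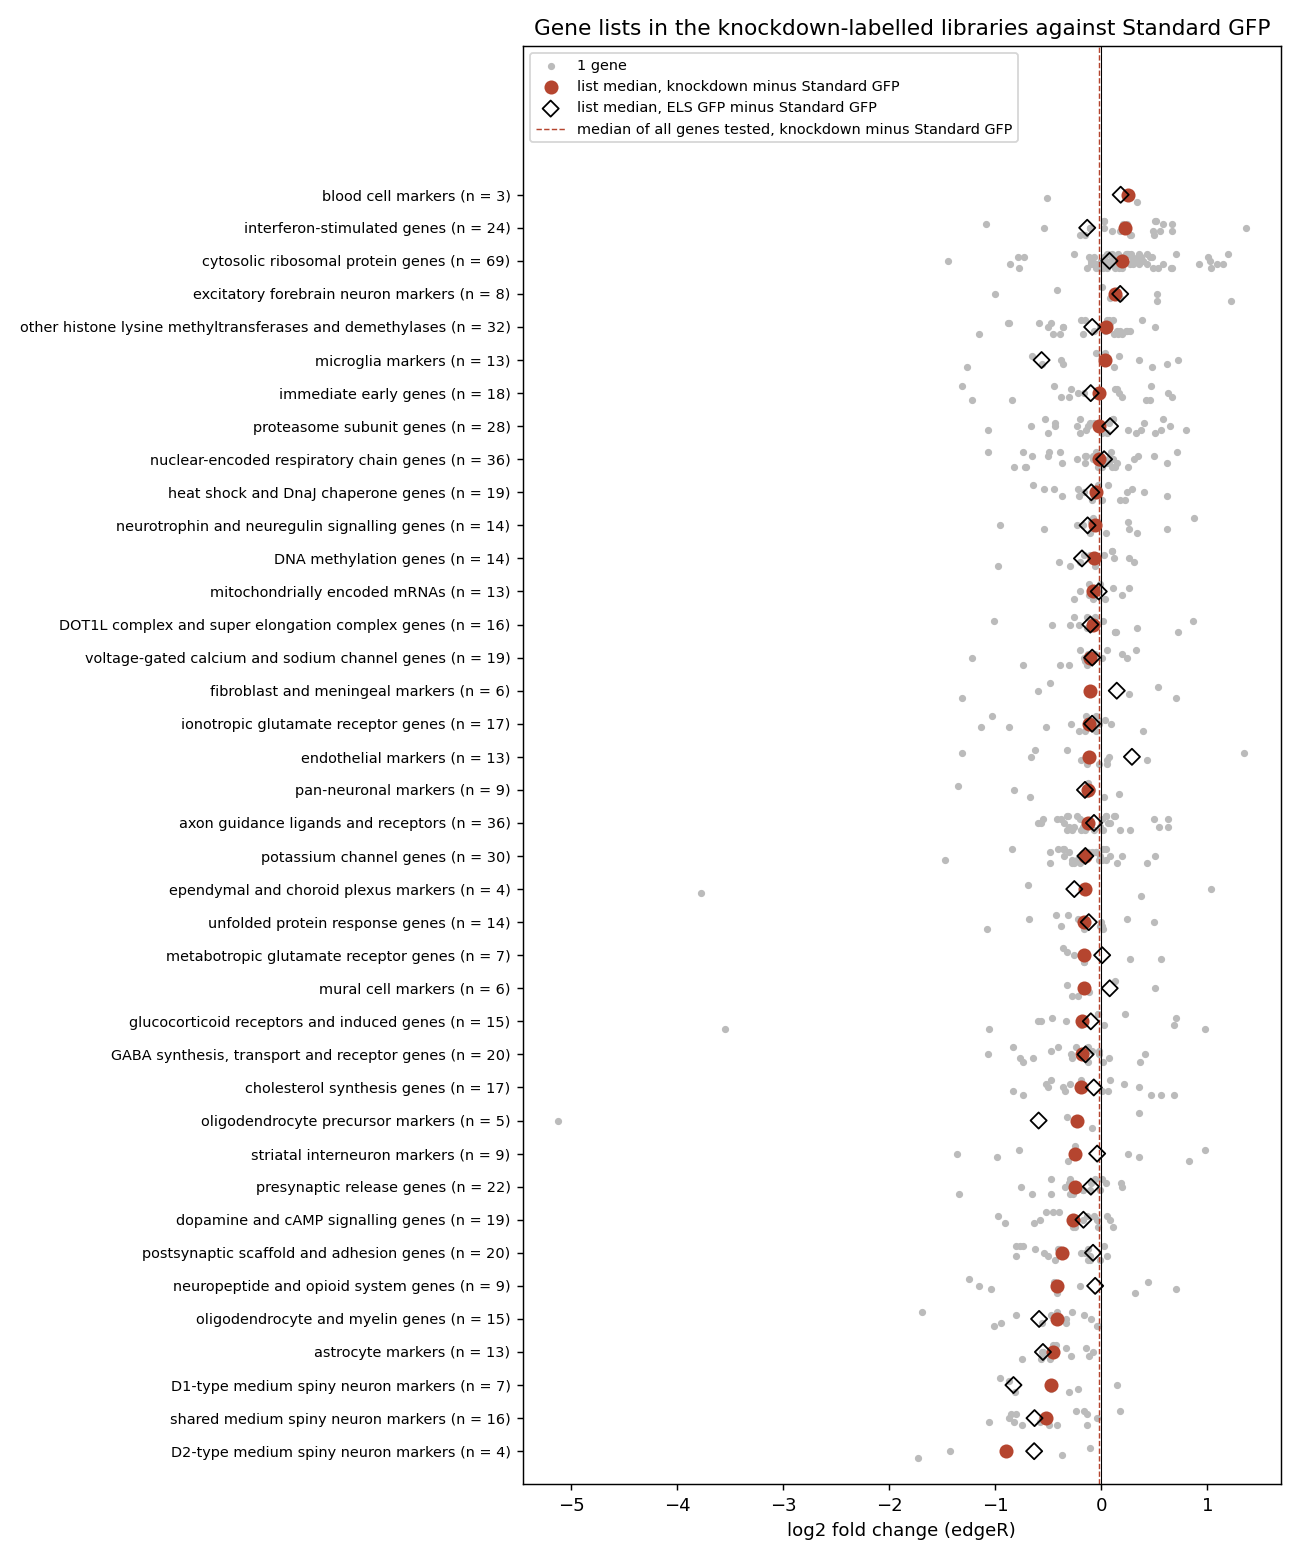
Log2 fold change of each tested gene (grey points) in 39 gene lists for the libraries labelled knockdown minus Standard GFP, with the list median in red and, as open diamonds, the list median for ELS GFP minus Standard GFP; the dashed line is the median of all genes tested. The astrocyte, myelin and medium spiny neuron medians lie left of 0 in both contrasts, which share the Standard GFP libraries.

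The same lists can be set beside the ELS GFP libraries. Both contrasts that use Standard GFP share those 8 libraries, so their values are not independent, and no comparison between them was tested. ELS GFP minus Standard GFP had 0 genes past the adjusted threshold, with 560 higher and 1084 lower at an unadjusted p under 0.05. In the libraries labelled knockdown minus ELS GFP these were 0 genes past the threshold, 312 higher and 554 lower. Astrocyte markers had medians of -0.46 against Standard GFP in the libraries labelled knockdown, -0.55 in ELS GFP, and 0.13 between those 2 groups of ELS mice. Myelin genes had -0.42, -0.59 and 0.037, shared medium spiny neuron markers -0.53, -0.63 and 0.025, and D2-type markers -0.90, -0.63 and -0.40. Postsynaptic genes had -0.37, -0.079 and -0.21, and all 20 of 20 were lower in the libraries labelled knockdown than in ELS GFP, beside 49.8% of all genes. The alternatives were fitted only for the contrast with Standard GFP. How the counts against ELS GFP depend on single libraries was therefore not tested.

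Microglia markers had 0.036, -0.56 and 0.46 in the same order, and all 13 were higher in the libraries labelled knockdown than in ELS GFP, beside 50.2% of all genes. Interferon-stimulated genes had 0.22, -0.13 and 0.38, with 2 of 24 lower in the last contrast, beside 49.8% of all genes. Endothelial markers had -0.12, 0.29 and -0.23. For single genes, Gja1 had -0.75, -0.88 and 0.13, Penk -1.43, -1.49 and 0.06, Chgb -1.20, -1.12 and -0.08, and Rpl10a 1.15, 0.80 and 0.35. Cplx2 had -0.75, 0.0072 and -0.76, Ptpn5, a phosphatase of medium spiny neurons, -0.81, 0.025 and -0.83 (its first value was -0.24 without the dominating libraries), and Pla2g4a 0.97, 0.16 and 0.80. In ELS GFP the highest levels of Cplx2 and Ptpn5 stood far above their medians. The highest were 943 and 325 CPM, while their medians of 183 and 51.7 CPM lay below the Standard GFP medians of 242 and 55.1 CPM. The median level of Gja1 in ELS GFP was 34.9 CPM, below the 40.1 and 56.2 CPM given above.

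**Figure D5:**
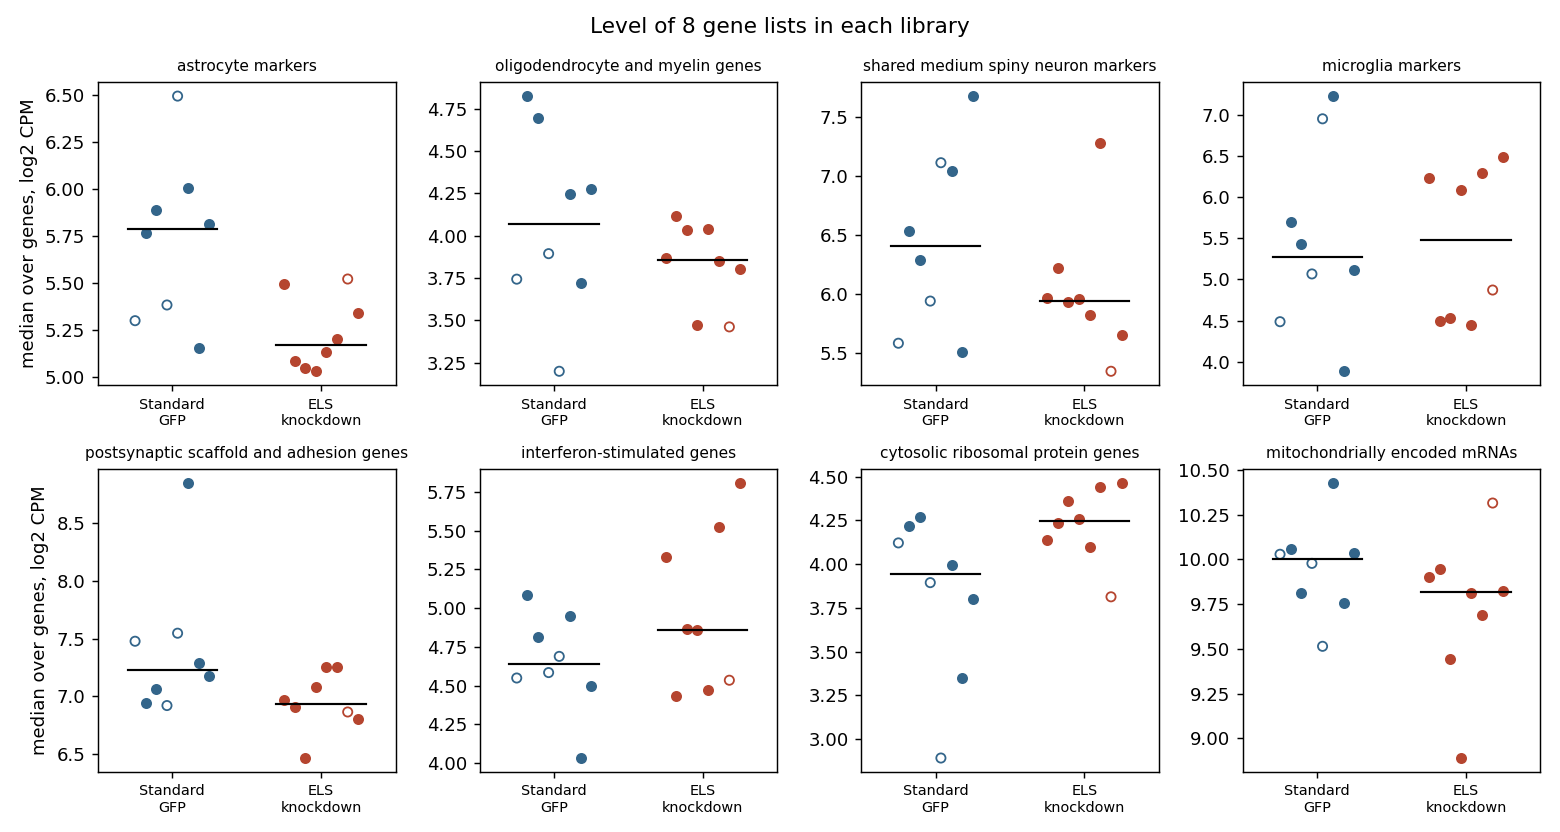
Median over the tested genes of 8 lists, in log2 CPM, for each library of both groups; the horizontal line is the group median and open points are libraries under 1 M counts. Astrocyte levels ran from 5.03 to 5.52 in the libraries labelled knockdown and from 5.16 to 6.50 in Standard GFP, microglia levels overlapped, and for interferon-stimulated genes knockdown replicates 1, 6 and 8 (5.33, 5.52 and 5.81) lay above the highest Standard GFP library (5.08).

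The deposited H3K79me2 peak lists, 1 for Standard and 1 for ELS mice, are a second readout that the RNA contrast did not use. They compare rearing and not vectors, and hold 117819 and 106374 distinct peaks. Fold enrichments are the authors' own values. Gabbr1 carried 8 Standard and 11 ELS peaks that covered 6465 and 4402 bp, with a highest fold within 1 kb of its start of 2.30 and 1.92. More peaks did not mean more covered length. Mapt had 23 and 33 peaks over 52552 and 41777 bp, and Gnao1 51 and 57 peaks over 115192 and 98094 bp. Adcy5, the main striatal adenylyl cyclase, had 51 and 72 peaks over 87080 and 68327 bp, and Pde10a 78 and 72 peaks over 74477 and 52348 bp. Srebf2 had 12 peaks in each list over 22516 and 20144 bp, and Dot1l 18 in each over 22787 and 17737 bp. In each of these 7 genes the highest fold was also lower in the ELS list, for example 3.17 and 2.85 in Mapt. This is not particular to them: it held for all named genes with peaks in both lists except Arc and Ell2. Nor is the shorter covered length in the ELS list, which held for every named gene with peaks in both lists. The share over all genes was not computed for the fold or for the length. Within 1 kb of its start Dot1l went the other way, with a highest fold of 2.33 in the Standard and 3.08 in the ELS list. Neither list held a peak at Gja1, Penk, Drd2, Chgb, Nefm or Rpl10a.

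Over all genes tested, 7497 had a gene body or promoter peak in both lists and 5697 in neither. The median log2 fold change was -0.052 in the first class and 0.044 in the second, without a test. Mean Standard GFP levels had medians of 19.9 and 4.48 CPM in these classes, and 6.96% and 14.2% of their genes were held by 1 library for over 50% of a group. As ratios of group medians the values were 0.025 and 0.079.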

How the data were processed

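RNA counts came from 32 whole-tissue libraries. The authors deposited raw counts per gene, not normalized, as whole numbers whose sums differ between libraries. FastQC, HISAT2, featureCounts, DESeq2 and mm10 are named per the submitters' processing notes, without versions or roles, while the sources used here do not give the strand setting. Overlapping and antisense genes therefore cannot be told apart. All 32 columns matched a library title (0 unmatched), and 52403 of 52636 gene IDs had a symbol. The authors also deposited H3K79me2 peak lists with a fold enrichment (a ratio) and q-values per the file headers, on mm10; the sources used here do not say how libraries were combined.

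Counts were tested in edgeR 4.0.16 (R 4.3.3; TMM, filterByExpr, robust quasi-likelihood, 32 libraries, 28 residual degrees of freedom), with Benjamini-Hochberg adjustment over 14016 genes and a threshold of 0.05. The SE is the absolute log2 fold change over the square root of F. CPM use TMM sizes. Library measures had exact permutation tests. DESeq2 1.42.0 and limma 3.58.1 were alternatives, and the edgeR step was checked on simulated data. The simulated counts had less spread than these libraries and no single-library genes, so the check does not show how the test behaves here. Python 3.11.15, pandas 2.3.3 and matplotlib 3.10.9 handled peaks and figures. Promoter sequences and gene coordinates are from RefSeq GRCm38.p6.

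Groups follow the labels, and replicate numbers follow accession order. The labels do not say that libraries are from separate animals, so p-values measure the spread between these libraries, which may be technical. Depth was 0.314 to 9.8 M counts, and counting error is larger in the shallow libraries. Named genes were up to 10 genes per direction with an adjusted p under 0.05 (filled to 6 by p), 8 per direction with the smallest p among well-spread genes, a list of striatal, glial and activity genes, and up to 4 per gene list; a few genes this rule names are not reported here. The 39 gene lists and the members were chosen with earlier results of these data known, so list counts are descriptions. Deviations correlated on average at 0.008 over 16 pairs of the same title number and at -0.0005 over 48 others. Title number 2 was carried by Standard GFP replicates 4, 5 and 6 and knockdown replicates 6 and 7. These include both dominating libraries and all libraries under 1 M counts except Standard GFP replicate 1. The title number therefore goes with those libraries, and a mean correlation near 0 does not dismiss it.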

Additional observations from a re-analysis of the deposited data

Results flagged for a closer look

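In 248 sets of 8 libraries (a named gene's log2 CPM, a list's median log2 CPM or a library measure within 1 group), 43 (17.3%) had a highest or lowest library set apart from the rest. The value in brackets is the gap to the nearest other library divided by the whole range of the group. Chance would flag about 1 in 20 independent sets. Many of these genes were picked by smallest p, single-library genes among them, and all sets share the same 16 libraries. That rate therefore does not apply to these sets, and the share flagged only describes them. Standard GFP replicate 5 gave 12 of these cases, replicate 6 and knockdown replicate 6 gave 9 each, knockdown replicate 7 gave 4 and Standard GFP replicate 1 gave 2. Knockdown replicate 7 was set apart as the highest for Pgam2 (0.637), Lipc (0.628) and Ercc5 (0.792). Knockdown replicate 6 was set apart as the lowest for Ncan (0.553), Srebf2 (0.742), Bdnf (0.699), Aldoc (0.576), striatal interneuron markers (0.66) and nuclear-encoded respiratory chain genes (0.77). Knockdown replicate 3 was set apart as the lowest for Adora2a (0.712) and Gja1 (0.642). Knockdown replicate 6 was set apart as the highest for Rgs9 (0.573), D1-type medium spiny neuron markers (0.592) and shared medium spiny neuron markers (0.547). Knockdown replicate 4 was set apart as the highest for Arc (0.754) and Eno2 (0.56). Knockdown replicate 5 was set apart as the lowest for Pdgfra (0.528) and DNA methylation genes (0.586). Knockdown replicate 7 was set apart as the lowest for the share of the 10 most abundant features (0.539). Standard GFP replicate 6 was set apart as the highest for Neu4 (0.535), Mex3a (0.726), Srebf2 (0.539), Thy1 (0.536), Gabra4 (0.527) and Dlg1 (0.564). Standard GFP replicate 6 was set apart as the highest for Nlgn2 (0.615), GABA synthesis, transport and receptor genes (0.599) and postsynaptic scaffold and adhesion genes (0.675). Standard GFP replicate 1 was set apart as the highest for Ptrhd1 (0.657) and Pclo (0.544). Standard GFP replicate 2 was set apart as the highest for 4933413J09Rik (1). Standard GFP replicate 5 was set apart as the lowest for Ercc5 (0.901), Rpl10a (0.837), Ppp2r3c (0.748), Dot1l (0.7), Mbp (0.647) and Psmb9 (0.646). Standard GFP replicate 5 was set apart as the lowest for striatal interneuron markers (0.615), neuropeptide and opioid system genes (0.656), cholesterol synthesis genes (0.804) and neurotrophin and neuregulin signalling genes (0.581). Standard GFP replicate 5 was set apart as the highest for Slc1a2 (0.661) and Aldoc (0.579).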

How the results depend on the processing

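Of 80 named genes 68 kept their sign in every alternative. The alternatives that leave out dominating libraries (those holding over 50% of their group's CPM in more than 3% of genes), shallow and dominating libraries together, and the rank-sum test were chosen after seeing the data. The counts past the adjusted threshold were 8 higher and 66 lower with the DESeq2 Wald test. Leaving out 1 library gave 0 to 15 lower genes, with 7 without Standard GFP replicate 2 and 15 without replicate 7. At an unadjusted p under 0.05 the counts were 1506 higher and 2034 lower with no filter. Lower genes numbered 683 with only the 16 libraries, 632 with limma voom, 586 with the title number as a replicate block, 449 without dominating libraries, 309 without shallow and dominating libraries and 243 by rank-sum test. Leaving out 1 library gave 666 to 1239 lower and 398 to 537 higher genes, the 666 without Standard GFP replicate 6. Lower genes made 71.2% of those at p under 0.05 in the reported fit and 47.9% without dominating libraries. The replicate block changed no adjusted call. Peaks summed over named genes were 829 (Standard) and 780 (ELS), and 430 and 368 with folds above the common median of 1.94. Log2 fold changes that changed sign were Kdm2b at 0.24 (limma voom with quality weights), 0.37 (without the dominating libraries), 0.23 (without shallow and dominating libraries), 0.50 (log2 ratio of group medians) and -0.24 to 0.41 over single left-out libraries, Tac1 at 0.63 (log2 ratio of group medians), Rgs9 at -0.77 to 0.022 over single left-out libraries, Fosb at -0.034 (DESeq2 Wald test) and -0.32 to 0.77 over single left-out libraries, Egr1 at 0.083 (limma voom with quality weights), 0.18 (without the dominating libraries) and 0.14 (without shallow and dominating libraries), Arc at 0.060 (without shallow and dominating libraries), Bdnf at -0.046 (title number as a replicate block), -0.098 (without the dominating libraries) and -0.16 to 0.32 over single left-out libraries, Fkbp5 at 0.029 (limma voom with quality weights), Cx3cr1 at 0.41 (limma voom with quality weights), 0.55 (without the dominating libraries), 0.49 (without shallow and dominating libraries), 0.13 (log2 ratio of group medians) and -0.55 to 0.22 over single left-out libraries, Pdgfra at 0.070 (without the dominating libraries), Rpl18 at 0.41 (without shallow and dominating libraries), Rpl21 at 0.096 (without shallow and dominating libraries). The cause of these changes was not tested. Depth limits low genes in the 4 libraries under 1 M counts.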

Other observations

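A few features outside the gene lists held much of every library, and were chosen after their values were seen. Cdk8 held 14.1% ± 4.05 of the counts in the libraries labelled knockdown and 15.00% ± 5.15 in Standard GFP (SD, n = 8), and CT010467.1 held 12.3% ± 2.11 and 12.8% ± 2.82. Their log2 fold changes were -0.28 (SE 0.31) and -0.23 (SE 0.27). The mitochondrial ribosomal RNA genes mt-Rnr2 and mt-Rnr1 had log2 fold changes of 0.25 (SE 0.18) and 0.25 (SE 0.18), while the 13 mitochondrially encoded mRNAs had a median of -0.075.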
